A study of Mus musculus with 5 samples.

Results

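VitA-Col1a1+ cells of chow-fed mouse liver were compared with VitA+Col1a1+ cells of the same kind of liver, gene by gene, by single-cell RNA sequencing (scRNA-seq). Cells were kept when they held at least 2000 unique molecular identifiers (UMIs, the tags that mark single captured RNA molecules) and 0 UMIs of Pecam1, Ptprc and Epcam, which mark endothelial, blood and epithelial cells. This left 825 of the 24007 barcodes in the series, 593 from the VitA- gate and 232 from the VitA+ gate. The question put to the pair of libraries was which genes separated the gates in liver that had seen neither the carcinogen nor the diet of the study.

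The mice were Rosa26mTmG;Col1a1-Cre (mTmG;CC) males on a C57BL/6J background. In these animals a Cre recombinase under the Col1a1 promoter switches a membrane reporter to green fluorescence for good, so Col1a1+ by sorting marks a cell in which this promoter was active at some time, also in the past. Both chow libraries came from mice injected with saline at 2 weeks of age and kept on chow for 5 months from the age of 6 weeks. The same pair of gates from liver of the same genotype, taken after diethyl nitrosamine (DEN, 10 mg/kg at 2 weeks) and liquid Western alcohol diet (WAD, 3.5% v/v ethanol) over the same 5 months, is used here only beside the chow values, and the library labelled VitA-Col1a1- only in the count of barcodes. Vitamin A (VitA) was gated by its own fluorescence under ultraviolet light, against primary stellate cells as the positive and a rat myofibroblast line as the negative control. How many mice went into a library was not given. Each group was 1 library, so no test could be run, and the gate cannot be told apart from its library and its 10x channel. All intervals are exact 95% intervals. Where a count was 0, the limit given is 3 counts over the total, and for a share it limits cells with a UMI at the depth used. Intervals and limits cover counting error only.

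Hepatic stellate cells (HSC) are the pericytes of the liver sinusoid. They take up retinol, esterify it with the enzyme encoded by Lrat and store it in lipid droplets, which gives the vitamin A fluorescence. Portal and adventitial fibroblasts sit around the bile ducts and larger vessels, make elastic fibres and collagen, and hold no such droplets, and the smooth muscle cells of the vessel wall carry a contractile protein programme.

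The VitA- library held 13766795 UMIs over its kept cells and the VitA+ library 5596529. The median cell had 22518 UMIs and 4986 genes in VitA- and 24418 UMIs and 4978 genes in VitA+, so the gates were alike in depth per cell. The lineage filter removed 54 VitA- and 23 VitA+ cells. After it, Clec4f, Adgre1, C1qa and Marco (macrophages) and Msln (mesothelium) held 0 UMIs in both gates, and Alb (hepatocytes) held 14 UMIs in VitA- and 0 in VitA+. Other genes on the same marker lists were not at 0. Egfl7 (endothelium) held 414 UMIs in VitA+ (65.1% of cells), Lyz2 (macrophages) 345 UMIs in VitA- (28.0% of cells) and Ahsg (hepatocytes) 210 UMIs in VitA-. The part of these transcripts in the results was not tested. Mitochondrial transcripts took a median of 2.94% and 2.67% of a cell's UMIs, while ribosomal protein genes took 12.1% of all UMIs in VitA- and 8.18% in VitA+, a difference whose part in the results was not tested.

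For each gene the UMIs of all kept cells of a library were summed and scaled to 1000000 (CPM), and the ratio of VitA- over VitA+ was taken. A gene counted as higher or lower when the ratio was 4-fold or more and the higher library held at least 10 CPM. Of 8929 genes with 10 CPM or more in either library, 580 were higher in VitA- (6.5%) and 213 were lower (2.39%), and 7309 (81.9%) lay within 2-fold. At 16-fold or more, 311 genes were higher and 56 lower. Of the 580 higher genes 104 had 0 UMIs in VitA+ cells, and of the 213 lower genes 0 were at 0 in VitA-. These counts of zeros were taken at unequal depth, as 3 UMIs stood for 0.536 CPM in VitA+ and 0.218 CPM in VitA-. The higher genes took 7.83% of all UMIs in VitA- cells and 0.607% in VitA+ cells, and the lower genes took 0.983% and 8.34%.

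**Figure D1:**
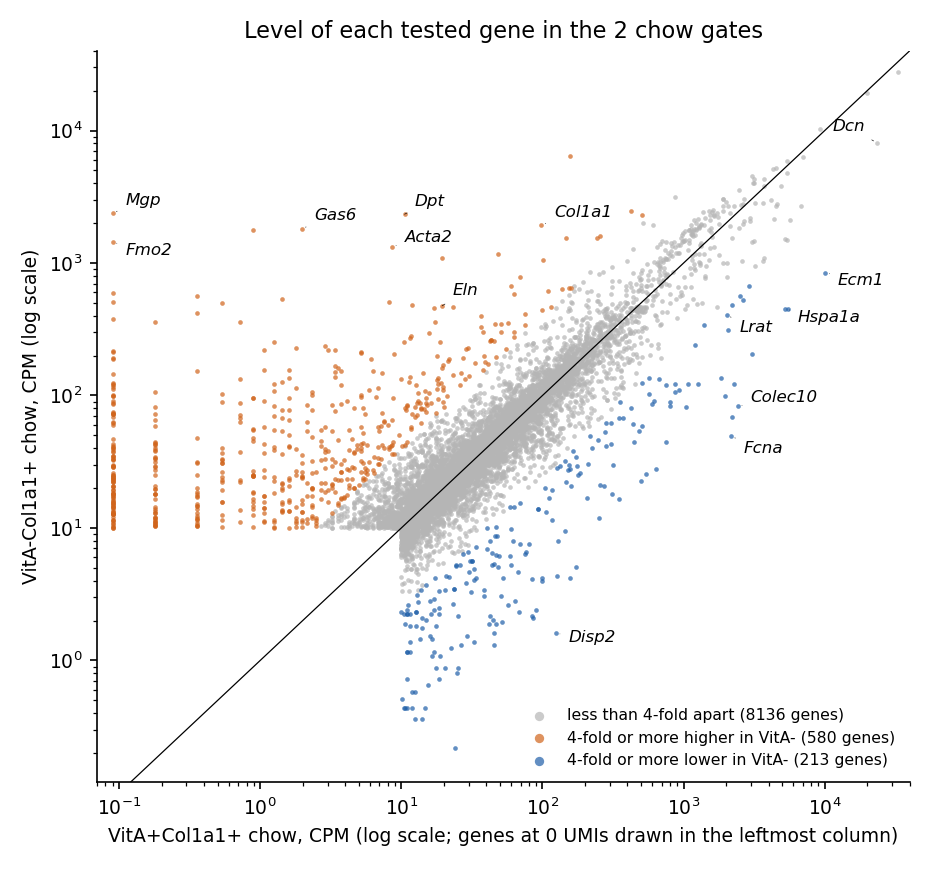
Level of the 8929 tested genes in the 2 chow gates, in CPM on log axes, with VitA+ on the horizontal and VitA- on the vertical axis, and genes with 0 UMIs in VitA+ drawn in the leftmost column. The 580 genes higher in VitA- reach that column, while the 213 lower genes all keep some UMIs in VitA-.

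The 3 marker genes of the comparison were read first. Lrat, the retinol-esterifying enzyme of stellate cells, stood at 403 CPM in VitA- (interval 392 to 413) and at 2015 CPM in VitA+ (1978 to 2052), a level 5.0-fold lower in VitA-. Dpt, which encodes the matrix protein dermatopontin, stood at 2335 CPM in VitA- (2309 to 2360.3) and 10.5 CPM in VitA+ (8.03 to 13.6), 221-fold higher. Eln, the gene of elastin, stood at 475 CPM (464 to 487) and 19.5 CPM (16 to 23.5), 24.4-fold higher. Lrat thus kept a sizeable level in the gate where it was lower, while Dpt and Eln stood near 10 to 20 CPM in theirs. In GRCm38, Lrat lies on chr3:82892579-82903973, Dpt on chr1:164796644-164824266 and Eln on chr5:134702593-134747323.

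The sequence before the start of 4 genes is shown because they stand for the programmes that the gates divided: Lrat and Fcna for the stellate side, Dpt for the fibroblast side and Acta2 for the smooth muscle side. Each is the 250 bases before the gene's start in the RefSeq promoter table (GRCm38.p6), 5′ to 3′ on the gene's strand, and capitals mark CAGCTG, an E-box word. Lrat is at chr3:82903975-82904224 (minus strand), Fcna at chr2:25627975-25628224 (minus), Dpt at chr1:164796413-164796662 (plus) and Acta2 at chr19:34255374-34255623 (minus).
Lrat: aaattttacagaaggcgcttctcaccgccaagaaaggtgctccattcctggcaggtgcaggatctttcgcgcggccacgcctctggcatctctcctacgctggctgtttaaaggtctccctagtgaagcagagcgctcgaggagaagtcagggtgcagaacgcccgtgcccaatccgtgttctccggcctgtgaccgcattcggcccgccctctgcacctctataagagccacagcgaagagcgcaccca
Fcna: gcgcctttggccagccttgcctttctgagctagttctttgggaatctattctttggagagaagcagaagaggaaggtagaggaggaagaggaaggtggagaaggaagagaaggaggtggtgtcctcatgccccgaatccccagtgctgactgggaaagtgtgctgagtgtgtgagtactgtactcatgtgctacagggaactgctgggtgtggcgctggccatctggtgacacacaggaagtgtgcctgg
Dpt: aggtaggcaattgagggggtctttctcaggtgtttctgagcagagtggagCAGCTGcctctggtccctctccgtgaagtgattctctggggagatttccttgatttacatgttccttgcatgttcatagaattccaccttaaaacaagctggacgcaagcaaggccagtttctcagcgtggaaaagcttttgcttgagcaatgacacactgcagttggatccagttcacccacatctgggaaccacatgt
Acta2: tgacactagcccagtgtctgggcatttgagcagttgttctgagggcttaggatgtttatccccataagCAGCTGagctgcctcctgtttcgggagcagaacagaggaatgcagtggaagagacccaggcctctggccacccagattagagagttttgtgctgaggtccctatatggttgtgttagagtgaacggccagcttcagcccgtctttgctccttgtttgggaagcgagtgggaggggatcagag

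CAGCTG began 200 bases before the start of Dpt and 182 bases before that of Acta2. On both strands it was found in 13% of all 32851 promoters in the table. Counted per gene over any listed start, it was found in 14.7% of 27025 genes. By the same count, 3 of the 10 smooth muscle genes that the table holds had it (Acta2, Lmod1 and Tpm2). So did 4 of 14 fibroblast genes, 4 of 18 stellate genes and 6 of 15 immediate-early and heat-shock genes. TATAAA was found in 12.4% of all promoters, AGATAA in 9.99% and TGACTCA in 4.46%, and the exact letters of these 3 words were not in the windows of Lrat, Fcna, Dpt or Acta2. Matches of different motifs may overlap, and a match is a run of letters, not a bound site.

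On the stellate side, 23 stellate markers were measured. Of these 15 were lower in VitA-, 1 was higher and 7 lay between, with a median log2 ratio of -2.81 against 0.07 over all genes tested, of which 2.39% were lower and 6.5% higher. The same shares stand behind the count of every list that follows. The order within the list was wide. Fcna, which encodes the lectin ficolin A, stood at 49.1 CPM in VitA- and 2163 CPM in VitA+, 44-fold lower. Tmem56 stood at 68.6 and 2190.3 CPM, and Colec10, which encodes a collectin of the lectin complement pathway, at 82.7 and 2421 CPM. Reln, the gene of the secreted glycoprotein reelin, stood at 99.6 and 1968 CPM. These 4 genes were further apart between the gates than Lrat (-2.32), at log2 ratios of -5.46, -5.00, -4.87 and -4.30.

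Other stellate markers differed much less. Colec11, the partner collectin of Colec10, stood at 1529 CPM in VitA- and 5256 CPM in VitA+ (log2 ratio -1.78). Des (desmin) and Cygb (cytoglobin), both used as stellate markers, were slightly higher in VitA- at 375 against 294 CPM and 924 against 728 CPM, under the 4-fold rule. Vtn, which encodes vitronectin, went the other way from its list, at 328 CPM in VitA- and 36.5 CPM in VitA+, 9.01-fold higher.

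The 15 genes lowest in VitA- against VitA+ by the rank rule were Disp2, Fcna, Tmem56, Fam84a, Epor, Colec10, Bmp10, Lrrn3, Dcdc2a, Lama1, Calcrl, Acap1, Ntm, Ank3 and Itgb3. Disp2 stood at 1.60 CPM in VitA- and 124 CPM in VitA+, 77.7-fold lower. The set held receptors, adhesion and matrix genes and a secreted ligand. Receptors were Epor, the erythropoietin receptor, at 2.11 and 85.9 CPM, and Calcrl, the calcitonin receptor-like receptor, at 27.7 and 633 CPM. Adhesion and matrix genes were Lama1, the laminin alpha-1 chain, at 4.36 and 127 CPM, Itgb3, the integrin beta-3 chain, at 4.0 and 98.8 CPM, and Ntm, the neural adhesion molecule neurotrimin, at 22.6 and 501 CPM. The secreted ligand was Bmp10, a bone morphogenetic protein, at 5.08 and 174 CPM.

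Of 18 genes of retinoid handling, 11 were tested, 3 were lower in VitA- (Lrat, Bco1 and Aldh1a3) and 0 were higher, with a median log2 ratio of -1.02. Bco1, which encodes the enzyme that cleaves beta-carotene, stood at 21.2 CPM in VitA- and 256 CPM in VitA+. Aldh1a3, a retinaldehyde dehydrogenase, stood at 6.1 and 49 CPM. The retinoic acid receptors Rara and Rarg lay near the same level in both gates (log2 ratios -0.17 and -0.22), as did Aldh1a1 (0.22). Stra6, the retinol transporter, had 0 UMIs in both.

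Among 13 tested genes of lipid storage, Plin2, which coats lipid droplets, was lower at 53.5 CPM in VitA- and 279 CPM in VitA+. Fabp4, Fabp5 and Cd36, which bind or take up fatty acids, were higher, with Fabp5 at 80 and 5.36 CPM. The other 9 genes lay between, with a list median of 0.59 on the log2 scale.

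On the fibroblast side, 25 portal and adventitial fibroblast markers were listed and 20 reached 10 CPM in a library. Of these 17 were higher in VitA- and 0 lower, with a median log2 ratio of 5.86, and 9 of the 25 had 0 UMIs in VitA+. The summed list took 1.01% of all UMIs in VitA- cells and 0.0554% in VitA+ cells. Of the markers that define subsets, Cd34 stood at 90.7 CPM in VitA- and 0 UMIs in VitA+, and Thy1 at 30.7 CPM against 3 UMIs. Pi16 and Dpp4, which mark adventitial fibroblasts in many organs, held 2 UMIs each in VitA-, so RNA of those genes was at the floor in these cells. Pdgfra, the platelet-derived growth factor receptor often used for fibroblasts, did not divide the gates (248 and 205 CPM).

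The 15 genes highest in VitA- against VitA+ were Mgp, Fmo2, C3, S100a6, Sfrp1, Tnnt2, Gas6, Mfap4, Igfbp5, Wisp2, Fmod, Serpinf1, Fbln1, Fgl2 and Pcolce2. Mgp, the matrix Gla protein that inhibits calcification, stood at 2379.9 CPM in VitA- and had 0 UMIs in VitA+, at least 4439.8-fold higher with the VitA+ level set at a floor of 3 UMIs in the library. Fmo2, a flavin-containing monooxygenase, stood at 1432 CPM against 0 UMIs, at least 2672-fold higher. Gas6, a vitamin K-dependent ligand of the receptors Axl, Mertk and Tyro3, stood at 1816 CPM against 1.97 CPM (11 UMIs, 9 of them in 1 cell), 924-fold higher with an interval of 516 to 1852. All 3 genes were thus among the more abundant transcripts of one gate and at or near the floor in the other.

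S100a6, a calcium-binding protein, stood at 1774 CPM in VitA- and 0.893 CPM (5 UMIs) in VitA+. Sfrp1, a secreted inhibitor of Wnt ligands, stood at 510.1 CPM against 0 UMIs, and Tnnt2, the cardiac form of troponin T, at 377 CPM against 0 UMIs. Igfbp5, an insulin-like growth factor binding protein, stood at 361 CPM against 1 UMI. Of the 15 genes, 9 had 0 UMIs in VitA+ cells (Mgp, Fmo2, C3, Sfrp1, Tnnt2, Wisp2, Serpinf1, Fgl2 and Pcolce2).

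On the smooth muscle side, 12 of 14 listed genes were tested, 10 were higher in VitA- and 0 lower, with a median log2 ratio of 3.81. Acta2, the smooth muscle actin, stood at 1329 CPM in VitA- and 8.58 CPM in VitA+, 155-fold higher. Cnn1 (calponin) and Actg2 (enteric actin) stood at 69.3 and 111 CPM against 0 UMIs each, and Myh11, the smooth muscle myosin heavy chain, at 469 against 23.2 CPM. Tagln (transgelin) was not absent from VitA+ cells, at 2470.4 and 425 CPM. Mylk and Mustn1 lay within 2-fold, at log2 ratios of 0.71 and 0.33.

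The collagens did not all follow the gate. Col1a1, whose promoter drives the reporter used for sorting both gates, stood at 1939.8 CPM in VitA- and 98.1 CPM in VitA+, 19.8-fold higher. Col1a2, its partner chain in type I collagen, stood at 1987 and 512 CPM (log2 ratio 1.96), just under the 4-fold rule, and Col3a1 at 3122 and 872 CPM (1.84). Col5a1 was near the same level in both (-0.15), and Col24a1 was lower in VitA- at 1.16 against 17 CPM. Of 8 tested fibrillar collagens 1 was higher and 1 lower, and of 10 tested other interstitial collagens 7 were higher and 0 lower. Among the latter, Col6a6 stood at 103 CPM against 3 UMIs and Col8a2 at 34.4 CPM against 1 UMI, while Col14a1 stood at 1963 CPM in VitA- and 2619.8 CPM in VitA+.

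Basement membrane genes divided by chain. Of 19 tested, 9 were higher in VitA- and 1, Lama1, was lower. Col4a1 and Col4a2, the widespread type IV collagen chains, differed by log2 ratios of 0.24 and 0.30, whereas Col4a3 and Col4a5 had 0 UMIs in VitA+ and stood at 16.2 and 47.2 CPM in VitA-, and Col4a4 stood at 88 against 0.715 CPM. Laminin chains Lama2, Lama4, Lamb2 and Lamc3 were higher in VitA-, with Lamc3 at 99.5 CPM against 0 UMIs. Lamb1 and Lamc1 were not (-1.20 and -0.39), nor were the nidogens Nid1 and Nid2 (-0.27 and 0.61).

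Of 20 tested elastic fibre genes 10 were higher in VitA- and 1 lower. Mfap4, a microfibril-associated glycoprotein, stood at 563 CPM against 2 UMIs, and Fbln1 (fibulin-1) at 498 CPM against 3 UMIs. Lox and Loxl1, which cross-link elastin and collagen, stood at 90.2 against 1.07 CPM and 299 against 37.9 CPM. Fbn1, the gene of fibrillin-1 that forms the microfibril itself, lay between at 220.4 and 104 CPM. The lower gene was Efemp1 (fibulin-3), at 121 CPM in VitA- and 751 CPM in VitA+.

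The small leucine-rich proteoglycans, which bind collagen fibrils, held the most abundant gene of all the lists in both gates. Dcn (decorin) stood at 8039 CPM in VitA- and 23525 CPM in VitA+, a log2 ratio of -1.55. Bgn (biglycan) and Prelp were also lower without passing 4-fold (-0.75 and -0.53), and Lum (lumican) was level (0.07). Fmod, Aspn, Ogn and Podn were higher in VitA-, with Fmod (fibromodulin) at 418 CPM against 2 UMIs and Aspn (asporin) at 84.9 against 2.14 CPM. Of 16 tested proteases and inhibitors 7 were higher and 0 lower. Mmp3 (stromelysin-1) stood at 72.6 CPM against 0 UMIs, and Timp1 and Timp3, inhibitors of metalloproteinases, at 65.4 against 1.61 and 2302 against 505 CPM, while Pcolce, an enhancer of procollagen processing, was at the same level in both (468 and 468 CPM).

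Of 25 tested growth factor ligands, 8 were higher in VitA- (Gas6, Vegfd, Tgfb3, Fgf7, Igf1, Tgfb2, Pdgfa and Vegfa) and 3 were lower (Gdf2, Hgf and Bmp5), where 6.5% and 2.39% of all tested genes were. Vegfd, a lymphangiogenic factor, stood at 357 CPM in VitA- and 0.715 CPM in VitA+, and Igf1 at 148 and 14.3 CPM. Gdf2 (BMP9), which signals to endothelium, stood at 44.4 and 745 CPM, Hgf, the hepatocyte growth factor, at 123 and 862 CPM, and Bmp5 at 134 and 671 CPM. The transforming growth factor betas were divided by isoform, since Tgfb2 and Tgfb3 were higher in VitA- while Tgfb1 stood at 45 CPM in VitA- and 121 CPM in VitA+.

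Of 22 Wnt ligands and modulators 10 were tested, 5 were higher in VitA- (Sfrp1, Rspo1, Sfrp2, Dkk3 and Wnt5a) and 1, Rspo3, was lower. Rspo3, an R-spondin that amplifies Wnt signals, stood at 81.8 CPM in VitA- and 1034 CPM in VitA+. Its relative Rspo1 stood at 15.8 CPM against 0 UMIs. Wnt4 lay between (128 and 246 CPM), and the Wnt target Axin2 was at the same level in both (14.7 and 14.1 CPM).

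Receptors were the signalling class with more lower than higher genes, at 9 lower and 4 higher of 29 tested. The lower ones included Vipr1, the receptor of vasoactive intestinal peptide (122 and 1266 CPM), Pth1r, the parathyroid hormone receptor (123 and 1068 CPM), Ramp1, the partner of Calcrl in the receptor for calcitonin gene-related peptide (106 and 869 CPM), and Ngfr, the low-affinity neurotrophin receptor (29.9 and 318 CPM). The 4 higher ones were Ntrk2 and Ntrk3, neurotrophin receptor kinases, Adra1a, an adrenergic receptor, and Lepr, the leptin receptor. Ntrk2 stood at 107 CPM against 1 UMI, and Ntrk3 at 114 against 1.79 CPM. Ngfr and the kinases Ntrk2 and Ntrk3, which all bind neurotrophins, thus lay on opposite sides of the gate. The ligand Ntf3 did not divide it (a log2 ratio of 0.80).

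Of 23 tested transcription factor genes 5 were higher in VitA- (Ebf1, Prrx1, Osr1, Gli1 and Wt1) and 2 lower (Lhx2 and Nr1h4), where 6.5% and 2.39% of all tested genes were, with a median log2 ratio of 0.23. Ebf1, an early B cell factor also used in fat and mural cells, stood at 214 and 5.18 CPM, and Prrx1, a mesenchymal homeobox gene, at 161 and 3.57 CPM. Lhx2, a homeobox gene of stellate cells, stood at 44.5 and 445 CPM. Gata4, Gata6, Nr2f2, Tbx20 and Tcf4 differed by less than 2-fold, and the stellate regulators Tcf21 and Hand2 had the same log2 ratio of -1.23.

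Complement genes lay on both sides of the gate. C3, the central protein of complement, stood at 594 CPM in VitA- and 0 UMIs in VitA+, and C7, a part of the membrane attack complex, at 227 and 1.79 CPM. Masp1, the protease of the lectin pathway, was lower at 314 against 2065 CPM, beside its lectins Fcna and Colec10, and Cfb and C6 were lower at 7.63 against 80.8 and 28 against 155 CPM. Serping1, an inhibitor of complement, lay within 2-fold (0.36). Of 11 tested complement genes 2 were higher and 3 lower.

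Of 17 tested chemokines and cytokines 7 were higher in VitA- and 0 lower. Ccl19, a ligand of the receptor Ccr7, stood at 1164 CPM in VitA- and 48.8 CPM in VitA+, 23.9-fold higher. Cxcl12, the most abundant chemokine of both gates, did not divide them (3829 and 4876 CPM). Il6 and Cxcl5 had 0 UMIs in VitA+ and stood at 10.2 and 12.8 CPM in VitA-, near the 10 CPM minimum.

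The oxylipin genes that the study followed were read in the same way. Of 8 listed, 4 were tested and all 4 were higher in VitA-. Cyp1b1, a cytochrome P450, stood at 71.9 CPM against 0 UMIs, Ptgs2 (cyclooxygenase-2) at 98.4 CPM against 0 UMIs, Ptges (prostaglandin E synthase) at 44.3 CPM against 1 UMI, and Ptgis (prostacyclin synthase) at 228 against 29.5 CPM. Ptgs1 did not reach 10 CPM in either gate (6.32 and 7.15 CPM), and Tbxas1 held 3 UMIs in each.

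Stress genes moved with the gate in part. The 6 heat-shock genes on the list (Hspa1a, Hspa1b, Dnajb1, Hspb1, Hsp90aa1 and Hsph1) were all lower in VitA-, with Dnajb1 at 135 CPM against 1828 CPM in VitA+ and Hsp90aa1 at 522 against 2643 CPM. The 12 immediate-early genes, which respond within minutes to cell isolation, all lay between, with Fos at 3005 and 4183 CPM and Egr1 at 1421 and 1327 CPM. The median cell gave 0.106% of its UMIs to the heat-shock genes in VitA- and 1.69% in VitA+. The part of this difference in the other results was not tested.

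**Figure D2:**
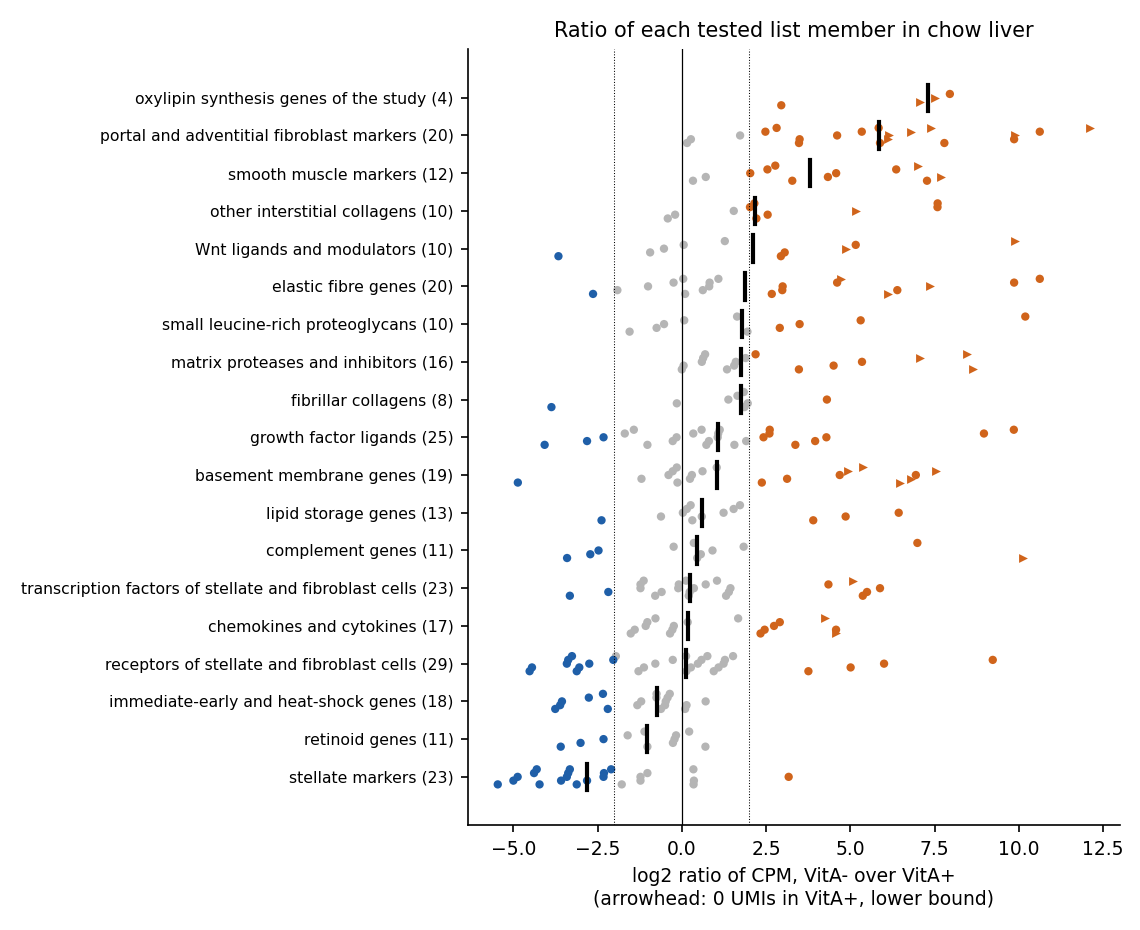
Log2 ratio of CPM, VitA- over VitA+, for every tested member of each gene list with at least 4 tested members, 1 point per gene, with orange and blue points 4-fold or more higher and lower, dotted lines at 4-fold and black bars at list medians. Fibroblast markers have a median of 5.86 and stellate markers of -2.81, and the numbers of tested genes stand in parentheses.

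How many cells carried each gene was read after thinning every cell to 2000 UMIs, so that depth did not enter. Lrat was found in 224 of 232 VitA+ cells (96.6%, interval 93.3 to 98.5) and in 238 of 593 VitA- cells (40.1%, 36.2 to 44.2). At full depth these shares were 100% and 78.2%. Dpt was found in 1.72% of VitA+ and 78.2% of VitA- cells (full depth 5.17% and 87.7%), and Eln in 3.02% and 42.5% (31.5% and 92.2%). Free RNA in the droplets was gauged in the cells that the filter removed and that held at least 10 endothelial UMIs: of 35 such cells in VitA-, at a median of 17606 UMIs, 2.86% carried Lrat after thinning and 11.4% at full depth (25% at both depths in the 12 such cells of VitA+), and 0 carried Dpt after thinning, which at 35 cells allows up to 8.57%. At full depth 17.1% of the 35 cells carried Dpt and 25.7% carried Mgp. The share of kept VitA- cells with Lrat was above that of these 35 cells at both depths. How much free RNA added to the shares of the kept cells was not tested.

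Genes that define the stellate side did not thin out alike in VitA- cells. Ecm1 (extracellular matrix protein 1) was found in 64.8% of VitA- cells after thinning and Colec11 in 83.5%, whereas Reln was found in 8.94%, Colec10 in 7.08% and Fcna in 4.72%. In VitA+ cells these 5 genes were found in 85.8% to 100% of cells. The labels give Hepatic stellate cell as the cell type of both libraries, and in Reln, Colec10 and Fcna most VitA- cells went against it. From the fibroblast side, Fmo2 was found in 73.0% of VitA- cells, Gas6 in 71.5%, Mgp in 53.5% and Sfrp1 in 33.2%, against 0 of 232 VitA+ cells for each, which allows a share of up to 1.29%. At full depth Gas6 was found in 1.29% of VitA+ cells and the other 3 again in 0. Lrat and Mgp were found in the same cell in 19.1% of VitA- cells after thinning (54.5% at full depth, where the removed cells carried Lrat in 11.4% and Mgp in 25.7%) and in 0 VitA+ cells.

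**Figure D3:**
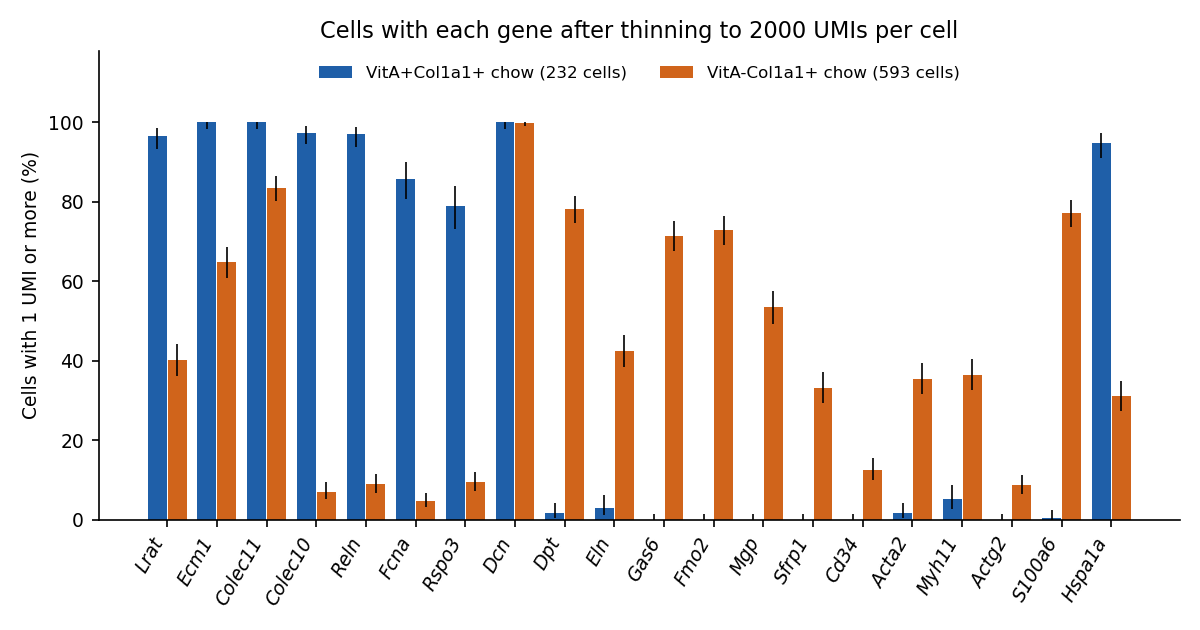
Percent of kept cells with at least 1 UMI of each gene after thinning to 2000 UMIs per cell, for the 232 VitA+ and 593 VitA- chow cells, with exact 95% intervals as lines. Ecm1, Colec11 and Dcn remain in most VitA- cells, while Reln, Fcna and Colec10 are found in under 10% of them.

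Cell by cell, the stellate list took a median of 4.13% of UMIs in VitA+ cells (lowest 1.80%, highest 5.71%) and 0.631% in VitA- cells (lowest 0.160%, highest 4.56%). The fibroblast list took a median of 0.0479% in VitA+ (highest 0.336%) and 0.974% in VitA- (highest 4.42%), and the smooth muscle list 0.132% (highest 0.732%) and 0.348% (highest 7.24%). The gates overlapped in the stellate list, since 35 VitA- cells (5.90%) reached the lowest VitA+ cell. Of the VitA- cells, 453 (76.4%) lay above every VitA+ cell in the fibroblast list and 178 (30.0%) above every VitA+ cell in the smooth muscle list.

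**Figure D4:**
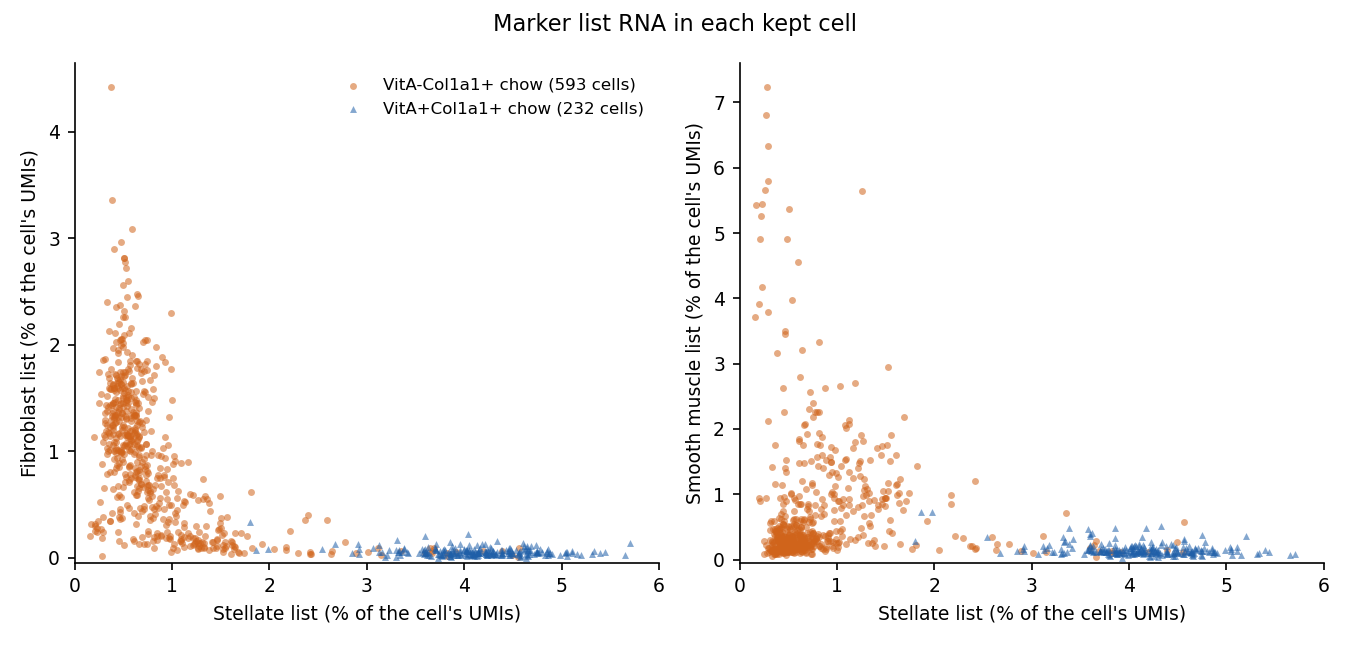
Percent of each kept cell's UMIs in the stellate list (horizontal) against the fibroblast list (left panel) and the smooth muscle list (right panel), 1 point per cell, VitA- as circles and VitA+ as triangles. VitA+ cells lie between 1.80% and 5.71% of the stellate list, and VitA- cells spread along the fibroblast and smooth muscle axes with a few among the VitA+ cells.

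These limits were used to describe what the VitA- gate held. The classes are ranges of a score and not cell types, and the lists that set them are not findings in them. With the 5th percentile of VitA+ cells (3.14%) as the limit of the stellate list, 15 VitA- cells (2.53%) reached it, 376 (63.4%) exceeded all VitA+ cells in the fibroblast list alone, 101 (17.0%) in the smooth muscle list alone, 77 (13%) in both and 24 (4.05%) met none of these. Cells within 20% of a limit numbered 14 for the stellate, 33 for the fibroblast and 52 for the smooth muscle list. Cells above both limits had a median of 21639 UMIs, against 24036 and 20552 in the cells above the fibroblast or the smooth muscle limit alone.

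Genes outside the 3 lists differed between these ranges. C3 stood at 824 CPM in the cells above the fibroblast limit alone and 32.1 CPM in those above the smooth muscle limit alone, Gas6 at 2561 and 143 CPM and Ptgs2 at 145 and 0.479 CPM. S100a6 stood at 1011 and 4265 CPM, Igfbp5 at 156 and 849.8 CPM, and Cd36, a fatty acid transporter, at 0.329 and 66.5 CPM. Cd36 was found in only 17 cells of the whole VitA- gate. Between these 2 ranges C3, Gas6 and Ptgs2 were thus higher on the fibroblast side and S100a6, Igfbp5 and Cd36 on the smooth muscle side, while Tnnt2 (324 and 545 CPM) and Ntrk3 (125 and 83.3 CPM) were within 2-fold between them. Cxcl12 stood at 4824 CPM in the fibroblast range and 1348 CPM in the smooth muscle range, against 4876 CPM in VitA+ cells, so its near-equal level over the whole gates was made up of unequal parts.

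The stellate markers left in the VitA- gate were also unequal between ranges. Fcna stood at 8.23 and 0.957 CPM and Colec10 at 11.1 and 26.3 CPM in the fibroblast and the smooth muscle range. Lrat stood at 357 and 233 CPM and Ecm1 at 554 and 681 CPM. Rgs5, a regulator of G-protein signalling that also marks pericytes, stood at 68.7 CPM in the fibroblast range and 2804 CPM in the smooth muscle range, the latter close to its 2888 CPM in VitA+. Vtn, the stellate list gene that was higher in VitA-, stood at 56.1 and 1163 CPM. Colec11 stood at 1099 and 2491 CPM.

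The 15 VitA- cells at or above the stellate limit were set beside the 220 VitA+ cells that also reached it. Over 8586 tested genes 64 were higher in VitA- (0.745%) and 116 lower (1.35%), with 268745 UMIs on the VitA- side. Of the 580 genes higher over the whole gates 18 were also higher here, and of the 213 lower genes 3 were also lower. The median log2 ratio was 0.51 over those higher genes that were tested here and -0.23 over those lower genes. The stellate list that set the limit holds 15 of the 213 lower genes, so their values here are in part fixed by the choice. Lrat stood at 2378 CPM in these VitA- cells and 2033 CPM in the VitA+ cells, and Dcn, which no limit used, at 23699 and 23648 CPM. Vtn was still higher at 189.8 against 37 CPM, Hspa1b was still somewhat lower at 3148 against 5480.4 CPM, and Col1a1 stood at 67 and 85.1 CPM.

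A marker pattern was read as well, and its count of cells moved with depth. At full depth 17 VitA- cells (2.87%) and 156 VitA+ cells (67.2%) carried Lrat and neither Dpt nor Eln, and after thinning 40 VitA- (6.75%) and 214 VitA+ cells (92.2%) did. At full depth 75.4% of VitA- and 32.8% of VitA+ cells carried Lrat with Dpt or Eln. After thinning, Lrat with Dpt or Eln was found in 33.4% of VitA- and 4.31% of VitA+ cells. Among the cells with Lrat alone at full depth, 198 of 8789 tested genes were higher in VitA- (2.25%) and 125 lower (1.42%). Acta2 stood at 611 CPM in the 17 VitA- cells and 3.70 CPM in the 156 VitA+ cells, and Ccl19 at 794 and 48.7 CPM. The median depth of the cells chosen was 17488 UMIs in VitA- and 24295 in VitA+.

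The same gates in DEN+WAD liver gave 2078 VitA- and 10005 VitA+ cells. There 288 of 8405 tested genes were higher in VitA- (3.43%) and 8 were lower (0.0952%). Of the 580 genes higher in chow, 259 were also higher in DEN+WAD, 44.7% of the chow list and 89.9% of the DEN+WAD list. Of the 213 genes lower in chow, 7 were also lower in DEN+WAD, 3.29% of the chow list and 87.5% of the DEN+WAD list. Among the 419 and 177 of these genes that were tested in DEN+WAD, the median log2 ratio was 4.06 in chow and 2.48 in DEN+WAD for the higher genes and -3.00 and -1.11 for the lower genes, and 418 and 176 kept their sign. All 177 lower genes and 384 of the 419 higher genes had the smaller ratio in DEN+WAD. As genes with large chow ratios were chosen on chow counts, smaller values elsewhere are in part fixed by the choice.

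For single genes the 2 treatments are given side by side. Lrat had a log2 ratio of -2.32 in chow and -1.09 in DEN+WAD, a difference of -1.24 (-1.29 to -1.19), and Fcna one of -5.46 and -1.28. Dpt had 7.79 and 4.06, Eln 4.61 and 3.12, Acta2 7.28 and 2.78 and Col1a1 4.31 and 1.87. Smoc2 had 2.48 and 2.45 and Ogn 3.50 and 3.65. Ebf1 had 5.37 and 5.27, with 16 of its 29 VitA+ chow UMIs in 1 cell. Col6a6 had 7.59 and 7.73, but rested on 3 VitA+ chow UMIs, and the interval of its difference ran from -1.91 to 2.25. The gates of both treatments thus had the same order for these genes, and the distance between them in DEN+WAD was smaller for Lrat, Fcna, Dpt, Eln, Acta2 and Col1a1. These differences between treatments were not tested, as each rests on 4 single libraries.

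**Figure D5:**
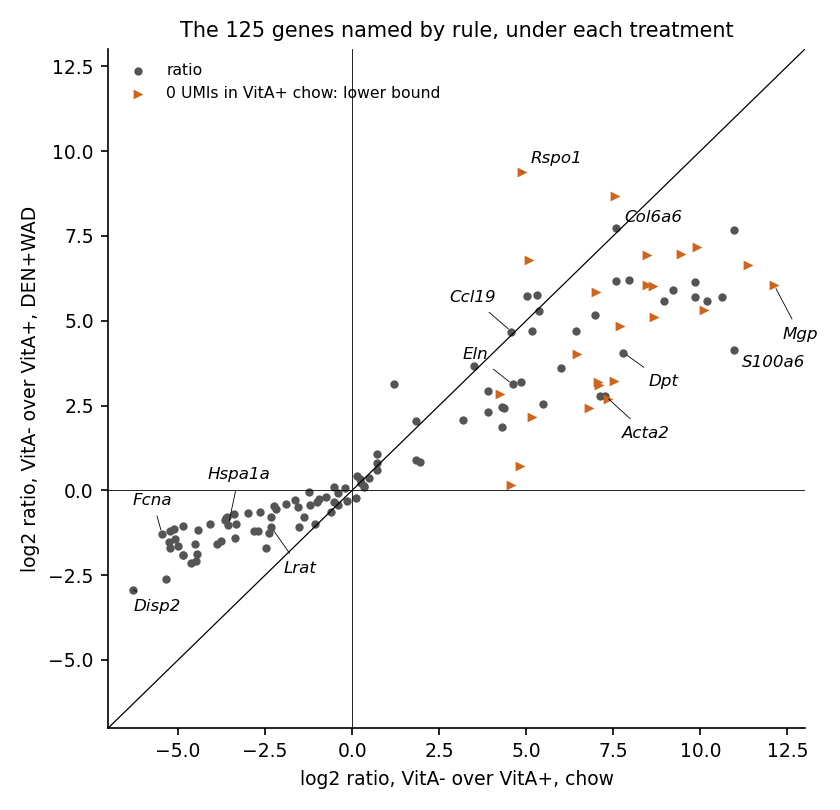
Log2 ratio of VitA- over VitA+ for the 125 genes named by rule, in chow (horizontal) and in DEN+WAD liver (vertical), 1 point per gene, with arrowheads for genes at 0 UMIs in the VitA+ chow library and the diagonal as equal ratios. Genes 4-fold or more lower in VitA- lie above the diagonal, from -6.28 in chow and -2.93 in DEN+WAD for Disp2 upward.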

How the data were processed

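Liver non-parenchymal cells were sorted by vitamin A and green fluorescence and run as 1 10x Genomics library per gate. Both a v3.1 and a v2 kit are named in the labels, and which was used was not settled here. Reads were aligned to mm10 and counted by the authors with Cell Ranger 3.1.0 (per the submitters' processing notes and the methods), and what was deposited are UMI counts for each gene in each barcode, not normalized. The strand setting and intron handling were not given in the sources used here.

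From these counts, cells with at least 2000 UMIs and 0 UMIs of Pecam1, Ptprc and Epcam were kept, UMIs were summed per library and scaled to CPM. Levels carry exact Poisson, ratios exact conditional binomial and shares Clopper-Pearson 95% intervals. A gene at 0 UMIs was set at a floor of 3 UMIs per library, 0.536 CPM in VitA+ and 0.218 CPM in VitA- chow, for ratios and medians. Cells were thinned at random to 2000 UMIs (seed 7) for shares. No doublet caller was run, and leaving out the 5% of cells with the most UMIs was an alternative. The chow libraries shared 0 barcodes, and any pair of the 4 Col1a1+ libraries at most 13. Genes were located by identifier in GENCODE M21 (31011 of 31053, 99.9%).

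The members and gene lists were chosen with earlier results of these data known. Genes were named by rule as Lrat, Dpt and Eln, the 15 largest and 15 smallest ratios by the end of the interval nearest 0 among genes with 50 CPM or more, and up to 3 members of each list per direction, 125 genes in all. Other list members were named after their values were seen. Hspa1a and Hspa1b, C4b and Ccl19 have near-identical copies, so their counts are uncertain. The ratio procedure was tested on simulated data. Python 3.11.15, numpy 2.4.6, scipy 1.17.1, pandas 2.3.3, matplotlib 3.10.9 and, for TMM (trimmed mean of M values) factors as an alternative, edgeR 4.0.16 in R 4.3.3 were used.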

Additional observations from a re-analysis of the deposited data

Results flagged for a closer look

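Among the 307 tested list members and genes named by rule, 13 (4.23%) had a ratio of VitA- over VitA+ of one sign in chow liver and the other in DEN+WAD liver, with counting intervals that left out 0 on both sides. Over all 8929 genes tested these were 324 (3.63%), of which 7 were 4-fold or more apart in chow. Each ratio rests on 2 single libraries, and the difference between treatments was not tested. This search over the lists was set after their values were seen.

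Timp1, the metalloproteinase inhibitor, had a log2 ratio of 5.35 in chow and -0.23 in DEN+WAD. In chow it stood at 65.4 CPM in VitA- and 1.61 CPM in VitA+, with 248 of its 901 VitA- UMIs in a single cell. Angptl4, an inhibitor of lipoprotein lipase, had 1.54 in chow and -0.71 in DEN+WAD, with 66 of its 250 VitA- UMIs in a single chow cell. Foxf1, a forkhead factor of liver mesenchyme, had -1.13 in chow and 0.052 in DEN+WAD, and C1ra, a protease of the classical complement pathway, had -0.24 and 0.76. Jund, a part of the AP-1 factor, had -0.50 and 0.32, and Egr1, an immediate-early factor, 0.10 and -0.23. Frzb, a secreted Wnt inhibitor, had -0.53 and 0.084, and Col16a1, a fibril-associated collagen, -0.20 and 0.073. Cxcl12, the chemokine, had -0.35 and 0.081, Hlx, a homeobox gene, -0.60 and 0.092, and Nr2f2, a nuclear receptor, 0.21 and -0.067. Scd2, a fatty acid desaturase, had 0.26 and -0.40, and Mustn1 0.33 and -0.036. In Timp1 and Angptl4 the chow difference was past 2-fold, in Foxf1 it was past 2-fold in the other direction, and in the other 10 genes both ratios were within 2-fold.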

How the results depend on the processing

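No paired analysis was possible because each group was 1 library and no library could be left out. The counts of 580 higher and 213 lower genes ranged from 532 to 580 and from 184 to 280 under TMM or median-of-ratios scaling, without the lineage filter or the UMI minimum, with a stricter lineage filter, without the 5% of cells with the most UMIs, with the mean over cells and with thinned cells. They were 1186 and 464 with no CPM minimum, 235 and 111 at 50 CPM, and 1051 and 569 at 2-fold. The scalings moved the median log2 ratio by less than 0.1. In cells with Lrat alone the counts of 198 and 125 genes were 199 and 125 with 2 Lrat UMIs required and 199 and 132 without other fibroblast genes, but these left 16 or 17 VitA- cells, nearly the same ones. With the 40 VitA- and 214 VitA+ cells chosen on thinned counts they were 247 and 58.

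Shares of cells moved with depth and threshold. Lrat in VitA+ cells was 100% at full depth and at 5000 UMIs and 86.2% with at least 2 UMIs required, and in VitA- cells 78.2%, 58.2% and 18.7%, and 35.9% without the lineage filter. Dpt in VitA+ cells was 5.17% at full depth and 0.431% at 2 UMIs, and in VitA- cells 87.7%, 82.7% at 5000 UMIs, 72.0% at 2 UMIs and 72.8% without the lineage filter. Eln in VitA+ cells was 31.5%, 8.66% at 5000 UMIs and 0% at 2 UMIs, and in VitA- cells 92.2%, 70.5% and 16.5%. The order of the gates held in each.

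Of the 125 named genes, 53 of 123 moved over 1.5 times on thinning, 12 fell under 4-fold and 1, Col16a1, changed sign. Without the lineage filter 16 of the 125 genes moved over 1.5 times and 5 fell under 4-fold. Fmo2, C3, Gas6, Pcolce2, Lamc3, Col12a1, Fabp4, Fabp5 and Cd36 were among the 16. In that setting Clec4g, an endothelial lectin, changed sign to 0.14. Spp1 (osteopontin, log2 ratio 3.90) rested on 1 cell: it was -0.41 without the cell holding the most of its UMIs, -0.38 without the lineage filter, -0.39 with the stricter filter and -0.53 without the cells of most UMIs. That choice of thinned cells was made after seeing the data, as were leaving out the cell with the most UMIs of a gene and keeping cells at or above the stellate limit. Without the cell of most UMIs 17 of the 125 genes moved over 1.5 times, among them S100a6, Gas6, Mfap4, Igfbp5, Fmod, Ntrk2, Ebf1 and Ptges, which held few UMIs in VitA+, and 1 fell under 4-fold. At or above the stellate limit 78 genes gave a value, 67 moved over 1.5 times, 43 fell under 4-fold and 23 changed sign. Of those 23, Lrat was 0.23, Itgb3 0.19, C6 0.20, Rspo3 0.16, Gcgr 0.40, Col1a1 -0.35 and Ogn -0.58, all 4-fold or more apart over the whole gates. Lrat is on the stellate list that set this limit, so its value there is in part fixed by the choice. The same holds for the other stellate list genes counted there.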

Other observations

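Of 8 cycling genes, only Mki67 reached 10 CPM in either gate. Mki67, a proliferation antigen, stood at 12.5 CPM in VitA+ and 0.363 CPM in VitA-, and was found in 25% of VitA+ cells at full depth and 0.843% of VitA- cells. After thinning it was found in 2.59% and 0%. Among the other 7, Top2a held 2 UMIs in VitA+ and 4 in VitA-, and Ccnb1 held 0 and 7. The whole list, Mki67 included, summed to 23.9 CPM in VitA+ and 6.03 CPM in VitA-.

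Single genes of other cell types were seen in the kept cells. Lyz2, a lysozyme of macrophages, stood at 25.1 CPM in VitA- and 1 UMI in VitA+, while 8 of the 12 macrophage markers had 0 UMIs in both. Ahsg, a plasma protein of hepatocytes, stood at 15.3 CPM in VitA- and 0 UMIs in VitA+, beside Alb at 14 and 0 UMIs. Egfl7 and Clec4g, both endothelial genes, were higher in VitA+ at 74 against 23.8 CPM and 24.5 against 5.16 CPM, while Cdh5 held 2 and 4 UMIs. Wt1 and Rspo1, which the mesothelium also uses, stood at 18.2 and 15.8 CPM in VitA-, with Msln at 0 and Upk3b at 1 UMI. Plvap, a gene best known from fenestrated endothelium, was found in 98.3% of VitA+ and 25.3% of VitA- cells after thinning. It was named after its values were seen.

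Pi16 and Slit2, both on the fibroblast list, were low in chow VitA- cells. Pi16 held 2 UMIs in chow, and its ratio in DEN+WAD was 8.47 on the log2 scale. Slit2 stood at 4.0 CPM in chow VitA- and 0 UMIs in VitA+.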
